A study of Rattus norvegicus with 42 samples.

Results

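Voltage-gated sodium channels carry the inward current of the action potential, and 7 genes of this family were followed here in the hippocampus of infant rats 72 h after an injection of phenobarbital (PB), levetiracetam (LEV) or vehicle (VEH). The genes were chosen by symbol: Scn1a, Scn2a, Scn3a and Scn8a, which encode 4 pore-forming alpha subunits, and Scn2b, Scn3b and Scn4b, which encode 3 auxiliary beta subunits. All 7 symbols were found, each as 1 RefSeq transcript, among 15516 transcripts of 14304 gene symbols in the count table. All 7 passed the filter on low counts, which kept 13062 transcripts for testing.

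An alpha subunit forms the whole pore, senses voltage and inactivates within milliseconds. The beta subunits are small membrane proteins with an immunoglobulin-like domain that change the gating and surface level of the alpha subunit and also act in cell adhesion. In the infant hippocampus the family is in transition, since the Scn3a channel is known from the fetal and neonatal brain, the Scn2a channel dominates immature axons, and the Scn1a and Scn8a channels rise with maturation.

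The study asked whether a brief exposure to an antiseizure drug in early life changes hippocampal gene expression. Sprague Dawley male pups received 1 intraperitoneal injection at postnatal day 7 (P7), with saline for VEH, 75 mg/kg for PB or 200 mg/kg for LEV, and tissue was taken at P10. Every animal of every group, VEH included, was euthanized with an overdose of pentobarbital, itself a barbiturate, and perfused with phosphate-buffered saline, so that all 3 groups share a barbiturate at death. Treatments were balanced within litter. Each library held RNA of the hippocampi of 1 animal, with 13 VEH, 14 PB and 14 LEV animals analysed, and 1 further VEH animal, marked as excluded in its label and left out by the study for its coverage, entered only where stated. Sample codes came in 2 forms, a C-prefixed form for animals 1 to 6 of each group (6 VEH, 6 PB, 6 LEV) and a single-letter form for animals 7 to 14 (7 VEH, 8 PB, 8 LEV). The pups came from a pair of orders, but no label ties an order to a form of code, so the code form was used as a batch term only as what it is.

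Library totals ranged from 9499492 to 14488134 estimated counts. Code form alone separated 30.2% of all transcripts at an adjusted p under 0.05. The summed count of 6 choroid plexus markers ran from 35.5 to 83555 across animals, so the dissections differed in this neighbouring tissue. All 5 markers of hippocampal pyramidal and granule neurons were counted in every animal. The sum of 4 neuronal markers spread more among PB animals (SD 3270) than among VEH (SD 1529) or LEV animals (SD 1773). Its lowest value was that of PB animal 2, at 24504, where the other groups lay between 30668 and 37468. PB animal 2 was the lowest PB animal for 4 of the 7 members and the highest for 1. Values without this animal are given beside many of the results it bears on, but not for the marker lists or most correlations. Since this is bulk tissue, fewer cells of a type and less RNA per cell cannot be told apart.

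In rn6 coordinates, Scn1a (NM_030875, chromosome 3, 52388812 to 52510508), Scn2a (NM_012647, chromosome 3, 51687910 to 51822009) and Scn3a (NM_013119, chromosome 3, 51532627 to 51643141) lie in 1 cluster of homologous genes. Scn8a (NM_019266) spans 142575629 to 142683668 on chromosome 7. The beta subunit genes are all on chromosome 8, with Scn3b (NM_139097) at 44136496 to 44159012, Scn2b (NM_012877) at 49419003 to 49427551 and Scn4b (NM_001008880) at 49441106 to 49456280, the latter a direct neighbour of Scn2b. The counts of Scn2a were not whole numbers in 100% of libraries, and those of Scn1a and Scn3a in 97.6%. The counts of the other 4 members were whole in all libraries, Scn8a included. Expectation maximization can assign a read to several transcripts in parts, and which transcripts shared reads was not tested.

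Promoter sequences from RefSeq (GRCr8) were matched for 5 of the 7 genes: Scn2a, Scn3a, Scn8a, Scn2b and Scn4b. Those of Scn2a and Scn8a are shown because the levels of these genes were correlated across animals, as described further on, while the letters before their starts are very unlike. Each run is the 250 bases before the start, on the plus strand, and capitals mark the GC box GGGCGG, searched on both strands. The Scn2a run is chr3:70710706-70710955 and the Scn8a run is chr7:133860977-133861226.
Scn2a: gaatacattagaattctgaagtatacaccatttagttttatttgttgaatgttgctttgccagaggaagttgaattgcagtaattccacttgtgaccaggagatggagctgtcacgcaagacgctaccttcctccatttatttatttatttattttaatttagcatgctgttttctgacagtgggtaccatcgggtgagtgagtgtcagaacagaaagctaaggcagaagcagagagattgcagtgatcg
Scn8a: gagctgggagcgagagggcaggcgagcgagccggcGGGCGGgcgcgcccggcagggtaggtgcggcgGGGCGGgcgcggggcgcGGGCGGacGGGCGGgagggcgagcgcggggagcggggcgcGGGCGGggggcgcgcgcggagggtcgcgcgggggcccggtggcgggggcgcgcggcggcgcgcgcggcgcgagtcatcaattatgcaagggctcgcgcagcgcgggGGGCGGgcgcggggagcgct
The Scn2a window was 39.6% G and C, with 4 CpG dinucleotides and no GC box. The Scn8a window was 86.0% G and C, above 99.9% of the 33469 windows of this length, with 53 CpG dinucleotides and 6 GC boxes. A GC box was present in 30.5% of all windows, and the median window was 51.2% G and C. The Scn3a and Scn2b windows resembled that of Scn2a (41.6% and 38.8% G and C), and the Scn4b window was GC-rich (71.6%) without a GC box. The letters TATAAA, searched on both strands and found in 12.9% of all windows, were in none of the 5.

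Levels are given as normalized counts, the estimated counts scaled to the mean effective library size. Counts of different genes are not compared with each other, because they were not divided by transcript length. Spread over the 41 animals differed between members: the coefficient of variation was 7.48% for Scn1a, 7.42% for Scn2a, 9.46% for Scn3a, 11.5% for Scn8a, 13.6% for Scn2b, 10.6% for Scn3b and 35.7% for Scn4b. Counting error alone would give 15.7% for Scn4b, which had 11 to 67 counts per library, and 1.18% for Scn3b, with 5707 to 8987. Scn1a and Scn2a thus varied least and Scn4b most, and a difference in Scn4b had to be large to be seen.

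PB animals had less Scn3b than VEH animals, and no other member differed past the test. Scn3b, a beta subunit known for high levels in the developing brain, ran from 6466 through a median of 7464 to 9224 normalized counts in VEH animals, from 5533 through 6564 to 7952 in PB animals and from 6688 through 7584 to 8457 in LEV animals. The PB range was shifted down but overlapped the others: 5 of 14 PB animals lay below the lowest VEH animal and 4 of 13 VEH animals lay above the highest PB animal. Means were 7587 ± 726 (SD, n = 13) in VEH and 6649 ± 591 (SD, n = 14) in PB. The log2 fold change was -0.19 (SE 0.05, Benjamini-Hochberg adjusted p = 0.0135 in edgeR's quasi-likelihood fit), and Scn3b fell by 12.4%, with a 95% interval of the change from -18.0 to -6.35%. It was lower in 13 of 14 PB animals than the VEH mean of their own code form. The change stayed past the threshold when each of the 41 animals was left out in turn, and without PB animal 2 it was -0.17 (adjusted p = 0.0257). With the excluded VEH animal counted it was -0.16 and no longer passed (adjusted p = 0.0694).

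**Figure D1:**
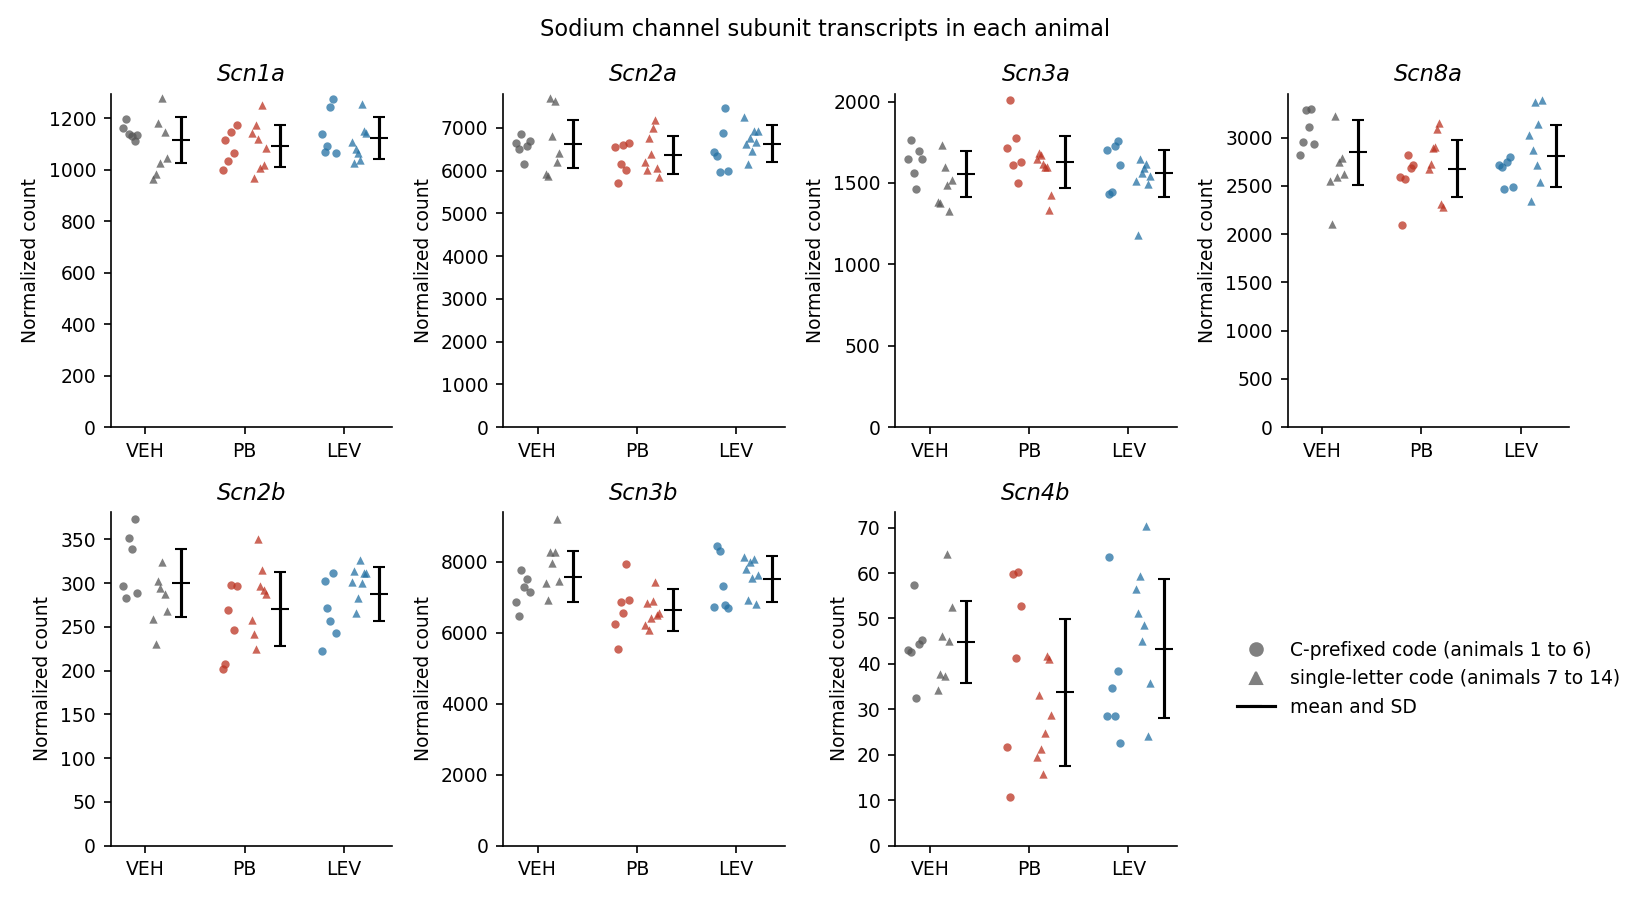
Normalized counts (linear axes from 0) of the 7 sodium channel subunit transcripts in each of 41 animals, by treatment, with circles for C-prefixed and triangles for single-letter sample codes and black bars for the mean and SD. PB animals sit lower for Scn3b, with a mean of 6649 against 7587 in VEH and 7513 in LEV, and Scn4b scatters most.

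In PB against VEH, 1 of 7 members passed an adjusted p of 0.05, where 5.39% of all tested transcripts did and 3.46% did so as lower. None of the 7 passed the stricter rule of the study, which also asks for a log2 fold change of at least 0.32 in size and was met by 0.605% of all tested transcripts. At an unadjusted p under 0.05, 3 of 7 members were lower, and 20.2% of all tested transcripts passed in either direction and 10.4% as lower. The log2 fold change was below 0 for 6 of 7 members, with a median of -0.09, against 48.1% of transcripts and a median of 0.00 over all tested.

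The other beta subunits had lower means in PB without passing the adjusted test. Scn4b, whose cytoplasmic tail is known to act as an open-channel blocker behind resurgent current, ran from 32.6 through 44.4 to 64.2 in VEH, from 10.7 through 31.0 to 60.3 in PB and from 22.6 through 41.7 to 70.4 in LEV. The PB animals were spread widely, with 7 of 14 below the lowest VEH animal and others among the upper VEH values. Its log2 fold change was -0.40 (SE 0.20, adjusted p = 0.247), and -0.33 (adjusted p = 0.349) without PB animal 2. Scn2b, which is linked to the alpha subunit by a disulfide bond, ran from 231 through 294 to 373 in VEH, from 201 through 278 to 351 in PB and from 223 through 301 to 326 in LEV, and the ranges overlapped widely. Its log2 fold change in PB was -0.15 (SE 0.07, adjusted p = 0.224), and -0.13 (adjusted p = 0.344) without PB animal 2.

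No alpha subunit differed between PB and VEH past the adjusted test. Scn8a, the main channel of mature axon initial segments and nodes, ran from 2109 through 2821 to 3293 in VEH and from 2092 through 2701 to 3157 in PB, with a log2 fold change of -0.09 (SE 0.06, adjusted p = 0.456), or -0.06 (adjusted p = 0.619) without PB animal 2. For Scn2a, the main channel of young excitatory neurons, values ran from 5869 through 6581 to 7707 in VEH and from 5722 through 6294 to 7184 in PB (log2 fold change -0.06, adjusted p = 0.468, and -0.05 without PB animal 2). Both pairs of ranges overlapped nearly throughout.

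Scn1a, whose channel is known from fast-spiking interneurons, was close to equal between the groups, running from 965 through 1135 to 1281 in VEH and from 967 through 1102 to 1251 in PB. Its log2 fold change was -0.03 (adjusted p = 0.768), with a 95% interval of the change from -7.41 to 3.98%. Scn3a, the channel of the immature brain, was the 1 member with a higher mean in PB, running from 1330 through 1558 to 1762 in VEH and from 1332 through 1622 to 2008 in PB (log2 fold change 0.07, adjusted p = 0.419). The PB maximum was animal 2, without which the log2 fold change was 0.05 (adjusted p = 0.607). For Scn1a, Scn2a and Scn3a the 95% intervals reached no further than -9.03 and 12.4%, so that a change of the size of this fold limit lay outside them.

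**Figure D2:**
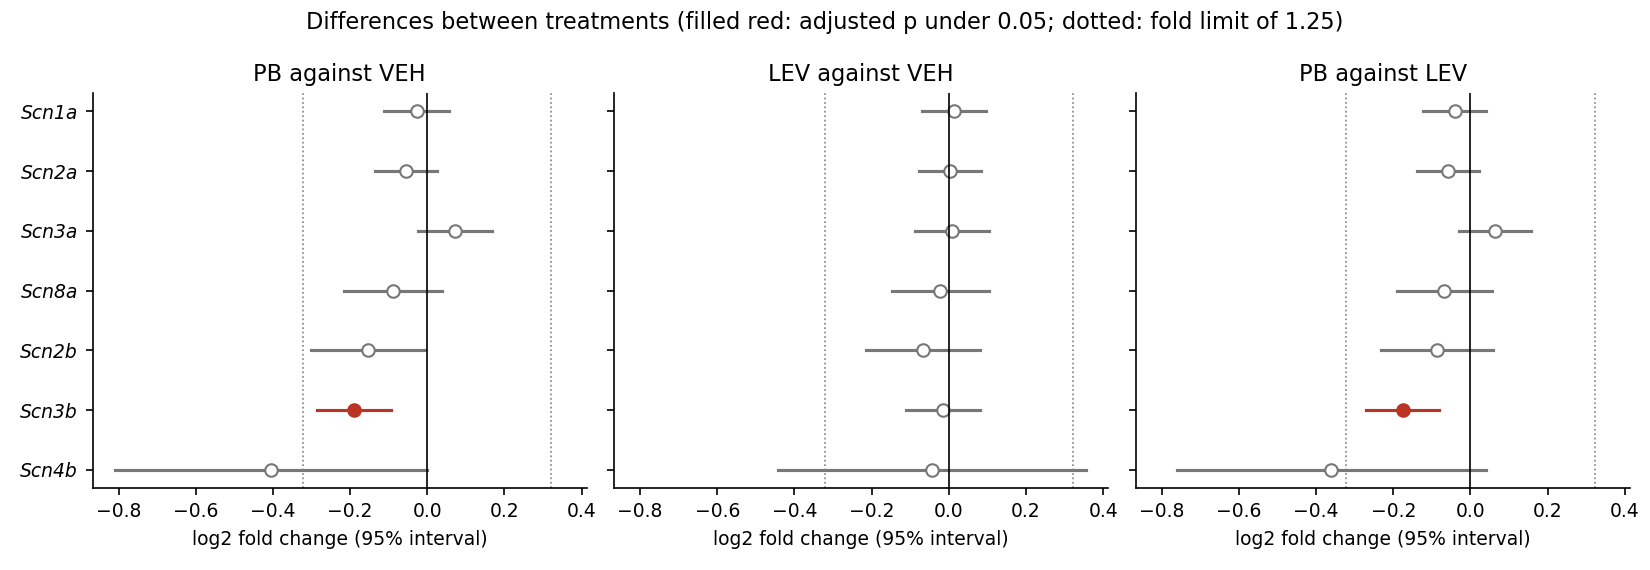
Log2 fold changes of the 7 members with 95% intervals for PB against VEH, LEV against VEH and PB against LEV, from the fit over 41 animals with code form as a term. Filled red points passed an adjusted p of 0.05, which only Scn3b did, at -0.19 against VEH and -0.18 against LEV, and dotted lines mark the log2 fold limit of 0.32 in size.

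No member passed the test in LEV against VEH. The count was 0 of 7 under either rule and 0 of 7 at an unadjusted p under 0.05 by edgeR's quasi-likelihood test, where 5.84% of all tested transcripts passed the unadjusted level and 0.00766% the adjusted one. DESeq2 also called 0 of 7. Log2 fold changes lay between -0.07 for Scn2b and 0.01 for Scn1a. The interval for Scn3b was -7.40 to 5.79%, and that for Scn4b was -26.5 to 27.9%, so only the former leaves out a change of the size seen with PB.

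Set directly against LEV, PB again had less Scn3b. The LEV mean was 7513 ± 641 (SD, n = 14), and 8 of 14 PB animals lay below the lowest LEV animal. The log2 fold change was -0.18 (SE 0.05, Benjamini-Hochberg adjusted p = 0.0236 in edgeR's quasi-likelihood fit), lower in 13 of 14 PB animals than the LEV mean of their code form. It was the 1 member of 7 past the adjusted p, beside 4.45% of all tested transcripts, and 0 of 7 passed both limits, beside 0.582%. The call was lost without PB animal 7 or without LEV animal 2 (adjusted p up to 0.0532), and held without PB animal 2 (-0.16, adjusted p = 0.0413). Within code forms it was -0.15 (adjusted p = 0.375) with C-prefixed and -0.20 (adjusted p = 0.0647) with single-letter codes. This comparison uses the same PB animals as the one against VEH. Scn4b was at -0.36 here (SE 0.20, adjusted p = 0.317, and -0.29 without PB animal 2), and the other members lay between -0.09 and 0.06. For Scn3b the order of group means was thus VEH, LEV, PB, with VEH and LEV not separated beyond their spread.

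Some transcripts of the marker lists also differed in these comparisons, and 3.46% of all tested transcripts were lower in PB than in VEH and 2.78% lower in PB than in LEV. The summed count of 6 GABA interneuron markers ran from 4864 through 6632 to 7255 in VEH, from 4275 through 5486 to 6828 in PB and from 5824 through 6472 to 7533 in LEV, and 3 of its 6 transcripts were lower in PB than in VEH past the adjusted test and 4 of 6 lower than in LEV. The list of 5 pyramidal and granule neuron markers ran from 8035 through 8598 to 9779 in VEH, from 7525 through 7995 to 8492 in PB and from 7553 through 8118 to 9159 in LEV, with 2 of 6 transcripts lower in PB against VEH and 0 against LEV, where 1 was higher. The 4 general neuronal markers ran from 31805 through 34973 to 36838 in VEH and from 24504 through 33276 to 35608 in PB. Of their 6 transcripts, 0 passed the test against VEH and 2 were lower against LEV. Without a test, all 6 general neuronal and all 6 GABA interneuron transcripts were below 0 in both comparisons. Their median log2 fold changes were -0.12 and -0.22 against VEH, and -0.15 and -0.23 against LEV. Of the pyramidal and granule neuron transcripts, 5 of 6 were below 0 against VEH and 3 of 6 against LEV. Against VEH, 48.1% of all tested transcripts were below 0, and against LEV their median log2 fold change was 0.00. Other lists also held transcripts below 0. For mature oligodendrocytes these were 7 of 11 against VEH (1 past the adjusted test) and 11 of 11 against LEV (2 past it). For astrocytes they were 7 of 11 (1 past it) and 6 of 11 (0 past it). Oligodendrocyte precursors and microglia each had 3 of 3 against VEH and 0 of 3 against LEV. Choroid plexus had 0 of 7 and 5 of 7, and striatum 1 of 6 and 4 of 6. Thalamus had 1 of 3 in both. None of the neuronal markers was at 0 in any animal. The 5 skeletal muscle markers summed to 109 to 436 in VEH, 68.8 to 160 in PB and 104 to 520 in LEV, with 3 of 3 tested transcripts lower in PB in both comparisons and Ckm at 0 in 26 animals. Their part in the Scn3b result was not tested. With the choroid plexus level as a covariate the Scn3b change in PB against VEH was -0.19 (adjusted p = 0.0190). Scn1a and Scn8a are themselves on the study's list of GABA neuron genes, and neither passed the test in PB.

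Fitted within each form of sample code, the PB change of Scn3b was larger in 1 of the 2. Against VEH it was -0.26 (adjusted p = 0.0116) with single-letter codes, where VEH animals ran from 6940 through 7961 to 9224 and PB animals from 6085 through 6539 to 7431. With C-prefixed codes it was -0.10 (adjusted p = 0.631), with VEH from 6466 through 7225 to 7761 and PB from 5533 through 6722 to 7952, and without PB animal 2, a setting added after the data were seen, it was -0.05 (adjusted p = 0.837). The direction was the same in both, and the treatment by code form interaction did not pass (unadjusted p = 0.253, adjusted p = 0.657). Scn4b was split more widely, at -0.68 (adjusted p = 0.0759) with single-letter codes, where PB animals ran from 15.8 through 26.7 to 41.7 and VEH animals from 34.3 through 45.0 to 64.2, and at -0.10 (adjusted p = 0.930) with C-prefixed codes, which turned to 0.09 (adjusted p = 0.933) without PB animal 2. Against LEV, Scn4b in PB was at -0.79 (adjusted p = 0.0647) with single-letter codes and at 0.18 (adjusted p = 0.844) with C-prefixed codes, or 0.38 (adjusted p = 0.579) without PB animal 2.

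Scn8a and Scn2b had lower means in both drug groups than in VEH with C-prefixed codes, without passing the adjusted test. For Scn8a with C-prefixed codes, VEH animals ran from 2821 through 3031 to 3293, PB animals from 2092 through 2641 to 2826 and LEV animals from 2472 through 2706 to 2802. The LEV and VEH ranges did not overlap, which held with LEV lower for 2.15% of all tested transcripts, and the PB and VEH ranges shared only the stretch from 2821 to 2826. The log2 fold changes were -0.25 for PB (adjusted p = 0.0706, and -0.19 with adjusted p = 0.0648 without PB animal 2) and -0.20 for LEV (adjusted p = 0.0824). With single-letter codes they were 0.05 and 0.13, with VEH animals from 2109 through 2626 to 3223.

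Scn2b followed the same course, at -0.35 for PB (adjusted p = 0.167, and -0.29 without PB animal 2) and -0.26 for LEV (adjusted p = 0.237) with C-prefixed codes, and at 0.01 and 0.10 with single-letter codes. Tested across both forms, 0 of 7 members passed the interaction at an adjusted p of 0.05, beside 0.505% of all tested transcripts. At an unadjusted p under 0.05, 3 of 7 did, beside 12.1%: Scn8a (p = 0.00964, adjusted p = 0.242), Scn2b (p = 0.0138, adjusted p = 0.279) and Scn4b (p = 0.0453, adjusted p = 0.399), all by edgeR's quasi-likelihood test.

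**Figure D3:**
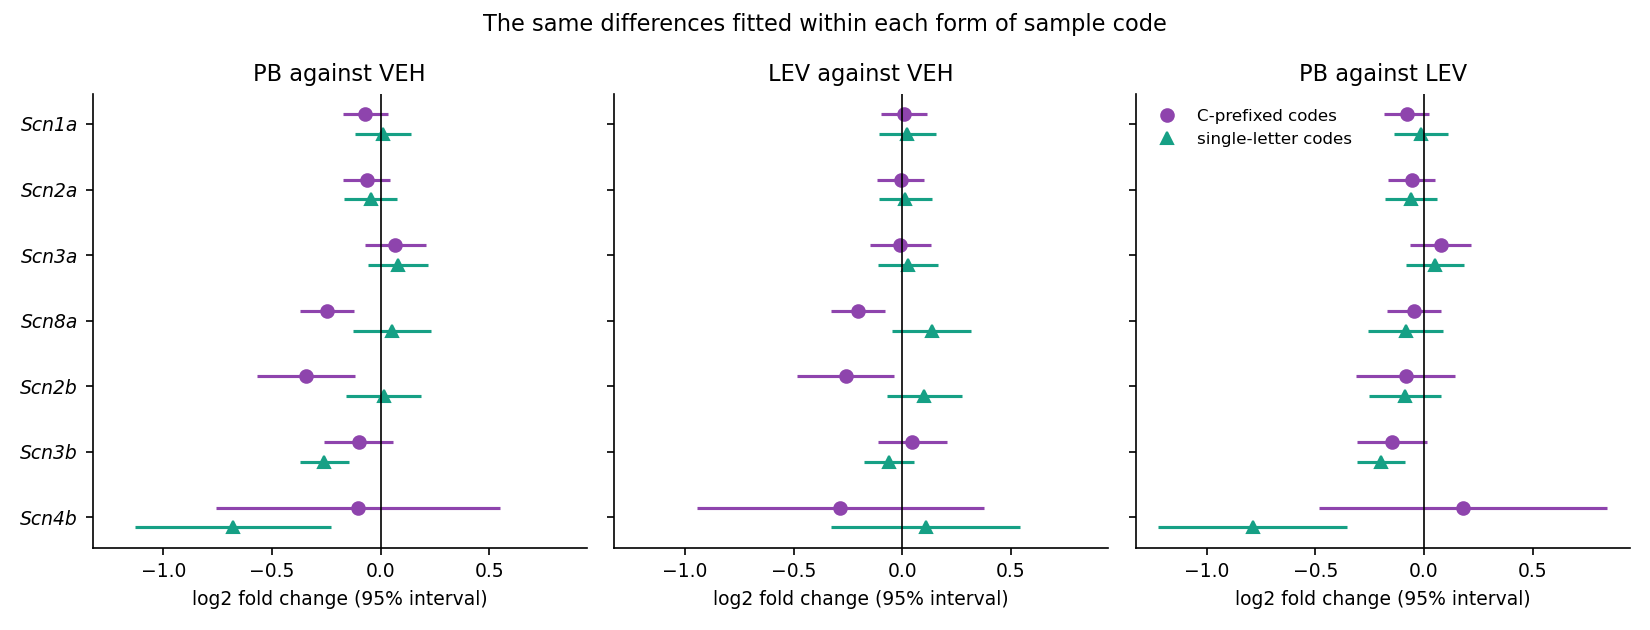
Log2 fold changes with 95% intervals fitted within C-prefixed codes (purple circles, 6 animals a group) and within single-letter codes (green triangles, 7 or 8 animals a group). Scn3b lies below 0 in both forms for PB against VEH, at -0.10 and -0.26, while Scn8a lies at -0.25 and 0.05 and Scn4b at -0.10 and -0.68.

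Between the code forms themselves, Scn3a was the 1 of 7 members past the adjusted test, where 30.2% of all tested transcripts passed and 15.2% did so as lower with single-letter codes. Its mean was 1648 ± 142 (SD, n = 18) with C-prefixed and 1528 ± 136 (SD, n = 23) with single-letter codes, a log2 difference of -0.11 (SE 0.04, Benjamini-Hochberg adjusted p = 0.0271 in edgeR's quasi-likelihood fit). The call was lost without PB animal 2, the animal with the highest Scn3a.

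Levels of several members were correlated from animal to animal. After removal of the group and code form means, the log2 level of 8 of 21 pairs of members was correlated over 41 animals at an adjusted permutation p under 0.05 by Pearson's r, and of 6 pairs by Spearman's rho as well. An r of at least 0.36 in size, that of the weakest of the 8, was reached by 10 of the 21 member pairs and by 8.80% of all pairs of tested transcripts. The pair of beta subunit genes Scn3b and Scn4b had r = 0.63 (permutation p = 4e-05, adjusted p = 0.00042) and rho = 0.64 (permutation p = 2e-05, adjusted p = 0.00021), and r was 0.63 without the 2 animals farthest from the median. Within code forms r was 0.73 (C-prefixed) and 0.49 (single-letter). Scn2a and Scn8a, the pair whose promoters are printed above, had r = 0.61 (permutation p = 1e-05 and adjusted p = 0.00021, the former being the floor of 100000 permutations) and rho = 0.61 (adjusted p = 0.00021). Without the 2 farthest animals r was 0.65, and within forms it was 0.54 and 0.64.

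Scn1a and Scn2a had r = 0.62 (permutation p = 0.00044, adjusted p = 0.00308) and rho = 0.52 (adjusted p = 0.0200), with r = 0.53 without the 2 farthest animals and 0.58 and 0.64 within forms. Both genes had counts that were not whole, and whether they share split reads was not tested. The remaining positive pairs past the adjusted p by Pearson's r were weaker. Scn8a and Scn2b had r = 0.48 (permutation p = 0.0156, adjusted p = 0.0468) and rho = 0.41 (adjusted p = 0.104), with r = 0.33 without the 2 farthest animals and 0.73 and 0.34 within forms. Scn1a and Scn8a had r = 0.41 (permutation p = 0.00975, adjusted p = 0.0410) and rho = 0.42 (adjusted p = 0.0274), with 0.24 and 0.48 within forms. Scn2a and Scn2b had r = 0.40 (permutation p = 0.00792, adjusted p = 0.0410) and rho = 0.43 (adjusted p = 0.0274), with 0.36 and 0.44 within forms. These last 2 pairs kept r at 0.41 and 0.42 without the 2 farthest animals. Scn3a and Scn8a had r = 0.36 (permutation p = 0.0183, adjusted p = 0.0480) and rho = 0.38 (adjusted p = 0.0374), but r was 0.24 without the 2 farthest animals, and within forms it was -0.18 with C-prefixed and 0.64 with single-letter codes.

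Scn3a and Scn3b ran in opposite directions in part of the animals. Over all 41, r was -0.41 (permutation p = 0.0122, adjusted p = 0.0427) and rho was -0.35 (adjusted p = 0.0729). Within the 18 animals with C-prefixed codes r was -0.83, or -0.80 without PB animal 2, and within the 23 with single-letter codes it was -0.03, so the pooled value describes neither form, and the difference between the forms was not tested. Animals with high Scn3a and low Scn3b include PB animal 2, at 2008 and 5533 normalized counts. The ratio of Scn3b to Scn3a counts within an animal had a median of 4.98 over the VEH animals, 4.17 over the PB animals and 4.84 over the LEV animals.

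**Figure D4:**
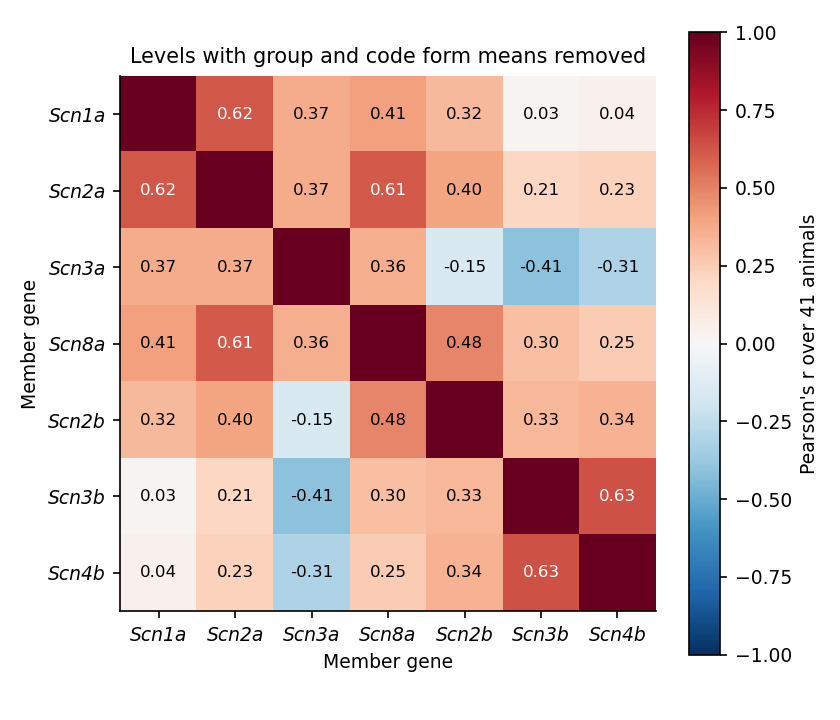
Pearson's r between the log2 levels of each pair of members over 41 animals, with group and code form means removed (colour scale from -1 to 1). The alpha subunits are all positive with each other, and Scn2b is positive with Scn1a, Scn2a and Scn8a (0.32, 0.40 and 0.48). Scn3b and Scn4b reach 0.63, and Scn3a is negative with the 3 beta subunits, at -0.15, -0.41 and -0.31. Within code forms these last values were -0.28, -0.83 and -0.57 (C-prefixed) and -0.04, -0.03 and -0.05 (single-letter). The alpha subunits Scn3a and Scn8a were at -0.18 (C-prefixed) and 0.64 (single-letter).

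The transcripts most like each member over the 41 animals were taken by the same residual r among 13061 other transcripts, and Spearman's rho of those named lay between 0.65 and 0.92. For Scn3b they were Wipf3 (r = 0.86), an actin regulator, and Scg2 (r = 0.85), a granule protein of secretory cells, and in PB against VEH these were at -0.27 (adjusted p = 0.0347) and -0.13 (adjusted p = 0.0796). For Scn4b they were Borcs7 (r = 0.81), a lysosome positioning factor, and Nefh (r = 0.77), the heavy neurofilament. Scn8a had the closest companions of all, Purb (r = 0.91) and the phosphatase gene Ppm1e (r = 0.89), and 48 transcripts had r above 0.8 with it. Scn2a was most like Tmem178b (r = 0.85) and the ubiquitin ligase gene Ubr3 (r = 0.77).

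For Scn1a the closest was the potassium channel gene Kcnb2 (r = 0.76). For Scn3a they were Tenm2 (r = 0.76), a teneurin, and the growth factor receptor gene Igf1r (r = 0.71). For Scn2b they were Aldh5a1 (r = 0.67), an enzyme of GABA breakdown, and Cplx2 (r = 0.66), a complexin of the release machinery. In PB against VEH these were at -0.16 (adjusted p = 0.00426) and -0.12 (adjusted p = 0.299), although Scn2b itself did not pass. Of the other named companions, only Wipf3 passed the adjusted test in PB against VEH. The r values given were the highest of many, so they describe these 41 animals only.

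Genes that work with the channels were read from a list of 47 (other channel subunits, FGF homologous factors, the axon initial segment and node, channel processing, and regulators of transcription and splicing), of which 44 were in the count table and 43, as 49 transcripts, were tested. In PB against VEH 2 of the 49 transcripts fell and 0 rose past an adjusted p of 0.05, beside 3.46% lower and 1.93% higher of all tested transcripts. In LEV against VEH 0 of 49 passed by edgeR's quasi-likelihood test, with 0 at an unadjusted p under 0.05. In PB against LEV 1 fell and 1 rose, beside 2.78% and 1.67%. The partners' median log2 fold change in PB against VEH was 0.03. With C-prefixed codes alone 0 partner transcripts passed in PB against VEH, with single-letter codes alone 1 did, and without PB animal 12 there were 4.

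Among partners at the axon, Cntnap1, the contactin-associated protein that flanks the node, ran from 1647 through 1928 to 2489 in VEH, from 1159 through 1613 to 2031 in PB and from 1578 through 2069 to 2460 in LEV. It fell in PB against VEH (log2 fold change -0.28, SE 0.07, adjusted p = 0.0125, lower in 13 of 14) and against LEV (-0.32, adjusted p = 0.00496, lower in 14 of 14), and was at -0.24 (adjusted p = 0.0204) and -0.28 (adjusted p = 0.00628) without PB animal 2. With 1 code form alone these calls were lost, at adjusted p = 0.300 and 0.163 with C-prefixed and 0.0640 and 0.0549 with single-letter codes. The ranges overlapped, with the highest PB animal above the VEH median. Even so, 8 of 14 PB animals lay below the lowest VEH animal and 4 of 13 VEH animals above the highest PB animal. Fgf13, an intracellular FGF homologous factor that binds the alpha subunit tail, ran from 5112 through 5927 to 7147 in VEH and from 4765 through 5538 to 6000 in PB (-0.16, adjusted p = 0.00939, lower in 14 of 14). With the excluded VEH animal counted, Fgf13 was at -0.08 (adjusted p = 0.740), and its adjusted p was 0.108 without a code form term and 0.431 with C-prefixed codes alone. In LEV animals Fgf13 ran from 4807 through 5903 to 6759. By edgeR's quasi-likelihood test it did not pass in PB against LEV (-0.09, unadjusted p = 0.0182, adjusted p = 0.152). It was nevertheless lower in 14 of 14 PB animals than the LEV mean of their code form. The LEV against VEH change of Fgf13 was -0.07 (adjusted p = 0.856). The adjusted test thus did not separate PB from LEV.

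Scn9a, an alpha subunit best known from sensory and neuroendocrine cells, went the other way. It ran from 195 through 251 to 330 in VEH, from 235 through 302 to 466 in PB and from 184 through 241 to 322 in LEV. It rose in PB against LEV (log2 fold change 0.35, SE 0.10, Benjamini-Hochberg adjusted p = 0.0278 in edgeR's quasi-likelihood fit, higher in 13 of 14), a call lost without PB animal 2, 7 or 11 (0.29 and adjusted p = 0.0629 without PB animal 2). The call was also lost with C-prefixed codes alone (0.32, adjusted p = 0.290), with single-letter codes alone (0.37, adjusted p = 0.156) and with all 14 VEH animals (adjusted p = 0.0922). Against VEH it was 0.29 (adjusted p = 0.0644, and 0.0417 by DESeq2), or 0.23 without PB animal 2.

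The remaining partners named by rank did not pass the adjusted test in PB against VEH. Nalcn, the sodium leak channel, ran from 1461 through 1717 to 2104 in VEH and from 1206 through 1599 to 1787 in PB (-0.12, adjusted p = 0.0856, lower in 11 of 14). Its adjusted p was 0.0294 when VEH animal 9 was left out, the 1 of 41 such fits under 0.05. Nalcn passed in 0 of 15 alternatives, with an adjusted p of 0.557 with all 14 VEH animals. The calmodulin genes Calm3 and Calm2 (NM_017326.1) were at -0.11 (adjusted p = 0.0579) and -0.09 (adjusted p = 0.203). Nfasc (NM_053909), the node adhesion gene, was at 0.30 (adjusted p = 0.319), Fgf11 at 0.05 (adjusted p = 0.848), the REST corepressor Rcor1 at 0.08 (adjusted p = 0.176) and the splicing repressor Ptbp1 (NM_022516) at 0.15 (adjusted p = 0.394). Of the 12 transcripts of transcription and splicing regulators, 0 passed, with 1 at an unadjusted p under 0.05, by edgeR's quasi-likelihood test. Scn10a was listed but under the filter, and Ank2, Cntnap2 and Nova2 were not analysed here.

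**Figure D5:**
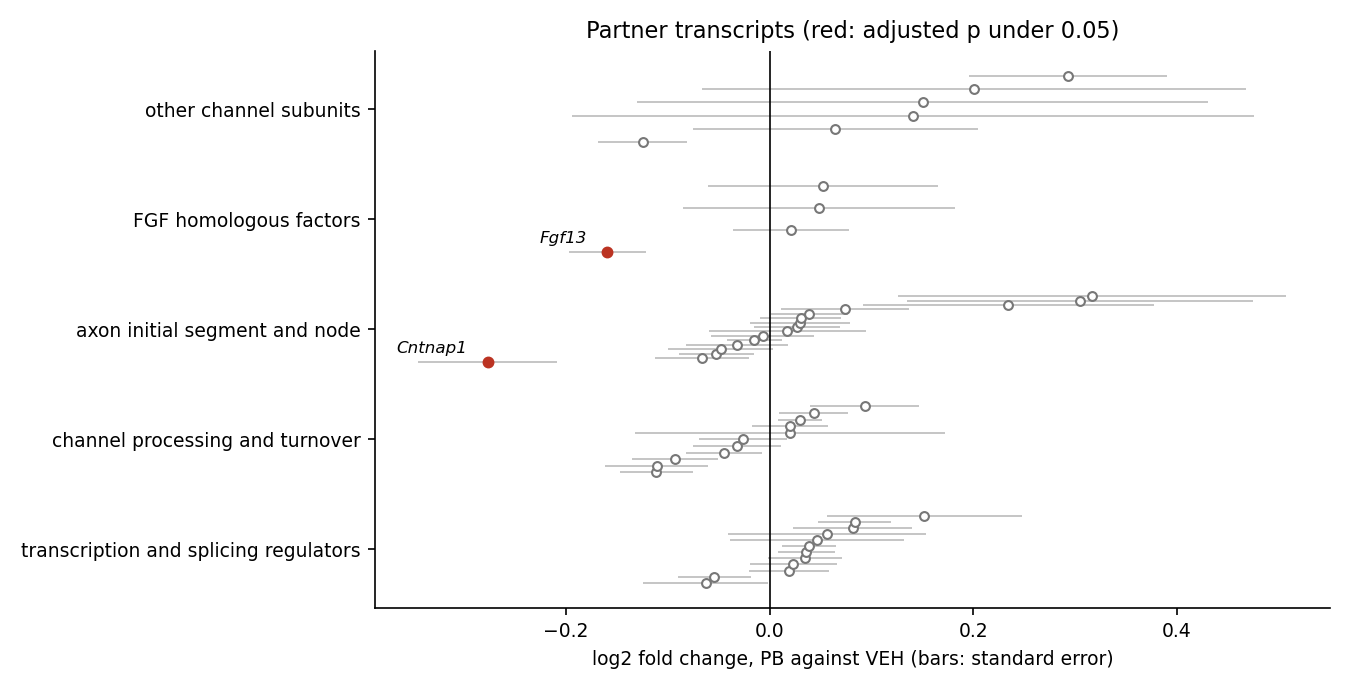
Log2 fold changes in PB against VEH, with standard errors, of 49 partner transcripts in 5 groups, with red for an adjusted p under 0.05. The 2 red points, Cntnap1 at -0.28 and Fgf13 at -0.16, lie below 0, and the other transcripts lie on both sides of it, up to 0.32.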

How the data were processed

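Hippocampal mRNA of 42 animals was sequenced by the authors with paired-end reads, aligned to rn6 with STAR 2.7.3a and quantified per RefSeq transcript in Partek by expectation maximization. The deposited values are estimated counts, 13.7% of them not whole, and they were rounded here. A further deposited file holds only the authors' own comparisons (p-values, ratios, fold changes and group means) and was not used. Transcripts were kept by edgeR's filterByExpr, scaled by TMM and tested with edgeR 4.0.16 (R 4.3.3), by the quasi-likelihood test with treatment and code form as terms over 41 animals. Benjamini-Hochberg adjustment ran over all 13062 transcripts tested. Correlations used log2 CPM (prior count 2) with group and code form means removed and 100000 permutations, adjusted over 21 pairs. Library totals of 9499492 to 14488134 set the counting error. No gene lengths or strand setting were given in the sources used here. The code was tested on simulated data. DESeq2 1.42.0 and other settings served as alternatives. The members and lists were chosen with earlier results of these data known, and partners were named by an adjusted p under 0.05 in any comparison or as the 2 smallest p in PB against VEH of each group of partners. Some genes of the lists are not reported here.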

Additional observations from a re-analysis of the deposited data

Results flagged for a closer look

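The gap between an end animal and its nearest neighbour was examined at both ends of 42 sets, each 1 member within 1 group and code form. It exceeded Dixon's limit in 2 of the sets, about the share that chance gives (1 in 20 sets). For Scn3a, LEV animal 8 was lowest of 8 with single-letter codes at 1182 normalized counts, with the next at 1491 and the highest at 1648. For Scn8a, PB animal 2 was lowest of 6 with C-prefixed codes at 2092, with the next at 2574 and the highest at 2826. Without LEV animal 8 the Scn3a change in LEV against VEH was 0.03, and without PB animal 2 the Scn8a change in PB against VEH was -0.06.

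The excluded VEH animal, which entered only the fits with all 14 VEH animals, lay outside all 13 other VEH animals for 4 of the 7 members, and it did so for 63.6% of all 13062 tested transcripts. The values that follow were normalized with this animal included, so those of the other animals differ slightly from the ones given above. Its Scn8a count was 3726 where the others reached 3286, and its Scn2b count was 482 where the others reached 372. Its Scn1a count of 655 and Scn3b count of 5774 lay below all 13, whose lowest values were 962 and 6452.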

How the results depend on the processing

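Scn3b kept its direction under all 15 alternatives in both PB comparisons. Its change in PB against VEH ran from -0.26 to -0.10 and passed the adjusted p in 13 of 15 (adjusted p from 0.00322 to 0.631), and in PB against LEV from -0.20 to -0.15 in 12 of 15 (adjusted p from 0.00492 to 0.375). The count of members past the adjusted p in PB against VEH was 0 with C-prefixed codes alone and 0 with all 14 VEH animals (Scn3b -0.16, adjusted p = 0.0694). In PB against LEV it was 0 with either code form alone and 0 with all 14 VEH animals (adjusted p = 0.0738), and leaving out animals gave 0 to 1, with 0 without PB animal 7 or LEV animal 2. Fewer animals enter the fits within a form. For partners in PB against VEH the count of 2 became 4 with DESeq2, 4 after subtraction of code form and interaction effects and DESeq2, 0 with C-prefixed codes and 1 each with single-letter codes, with all 14 VEH animals and without the code form term, and leaving out animals gave 2 to 4, with 4 without PB animal 12. The code form count ran from 0 to 1, with 0 without PB animal 2. The cause of these shifts was not tested.

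Of 312 member values under alternatives, 294 kept direction and side of the threshold, 5 lost the threshold and 13 changed sign, all 13 from values that had not passed. With single-letter codes alone PB against VEH gave 0.0094 for Scn1a, 0.049 for Scn8a and 0.014 for Scn2b, and LEV against VEH gave 0.13 for Scn8a, 0.10 for Scn2b and 0.11 for Scn4b. With C-prefixed codes alone LEV against VEH gave -0.0081 for Scn2a, -0.0099 for Scn3a and 0.045 for Scn3b, PB against LEV gave 0.18 for Scn4b, and PB against VEH gave -0.12 for Fgf11 and -0.024 for Ptbp1. With all 14 VEH animals PB against VEH gave 0.015 for Scn1a, and LEV against VEH gave -0.00069 for Scn3a and 0.011 for Scn3b. Leaving out 1 animal moved LEV against VEH from -0.0020 (VEH 8) to 0.034 for Scn1a, from -0.014 (LEV 5) to 0.022 for Scn2a, from -0.0051 (VEH 13) to 0.032 for Scn3a, from -0.032 to 0.0096 (VEH 13) for Scn3b and from -0.11 to 0.015 (LEV 6) for Scn4b, with the animal whose absence turned the sign in parentheses. With C-prefixed codes alone and without PB animal 2, a setting added after the data were seen, PB against VEH gave 0.094 for Scn4b, and PB against LEV gave 0.0093 for Scn8a and 0.38 for Scn4b. Scn4b was not tested under the filter of a mean of at least 50 counts.

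Over all transcripts, 704 passed the adjusted p in PB against VEH, and 1061 did after subtraction of code form and interaction effects and DESeq2, 410 without the code form term, 64 with C-prefixed codes, 392 with all 14 VEH animals and 447 with the animal number as a replicate block. In PB against LEV 581 passed, and 1091 did after that subtraction, 288 without the code form term, 81 with C-prefixed codes, 132 with single-letter codes and 174 with all 14 VEH animals. In LEV against VEH 1 passed, against 346 with C-prefixed codes and 67 after subtraction. Of 40 same-number pairs of animals, 11 correlated above 0.1, and 1 of 41 animals correlated best with its own number. These values cannot show whether same-number animals were littermates, because no label ties a number to a litter. The main fit had no litter term, although treatments were balanced within litter. Under the block Scn3b was at -0.19 in PB against VEH (adjusted p = 0.0223) and the count of members past the adjusted p was 1.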
